A study of Homo sapiens with 12 samples.

Results

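RNA recovered by immunoprecipitation (IP) of the endogenous ADAR3 protein was compared with the input RNA of the same kind of cells, U373-MG, a human glioblastoma line. The comparison uses 8 of the 12 libraries of the study, 4 of ADAR3 IP and 4 of input, taken by their titles. The other 4 libraries are IPs with pre-immune serum, the control for recovery that does not depend on the antibody, and are given beside the results. No treatment or genotype distinguishes the groups: no modification of the cells is labelled, and they were grown in serum-containing medium, crosslinked with ultraviolet light at 150 mJ/cm2, and then lysed and sonicated. By the protocol ribosomal RNA was depleted from every library, while the molecule label reads polyA RNA. The starting material was 1 µg of total RNA for an input library and the whole recovered RNA for an IP library, so it differs between the groups by design. U373-MG is 1 line, and distributed stocks under this name have been found to derive from another glioblastoma line. The labels do not say whether the replicates are separate cultures, and the p-values below may therefore reflect technical spread alone.

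ADAR3 belongs to the adenosine deaminases acting on RNA, a family that binds double-stranded RNA and, in its active members, converts adenosine to inosine. No deaminase activity is known for ADAR3, which is found mainly in brain and which can compete with the active members for their RNA targets. In an IP after ultraviolet crosslinking, RNAs held by the protein are recovered together with RNAs that stick to antibody, serum or beads. A sequenced IP reports the share of reads each RNA takes, not the amount recovered. A gain over input therefore means a larger share of the library, while a lost share says nothing of the absolute yield of that RNA.

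The files name genes by Ensembl ID only, and none of the 31707 IDs of the joined tables could be matched to a symbol or gene type with the reference used here. The labelled cell type could therefore not be checked against marker genes, and the shares of RNA classes and the gene lists were not analysed here. At most 2 IDs are printed for each direction. Reads assigned to genes numbered 23999234 to 30156884 per ADAR3 IP library, 4873428 to 12772412 per input library and 1875461 to 4946149 per pre-immune library, so that every ADAR3 IP library was deeper than every input library. Levels are given in CPM, the reads of a gene scaled to a fixed total of 1000000 reads per library.

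The ADAR3 IP held a broadly similar population of RNAs to input, with many moderate shifts and a small number of very large ones. Of 14601 genes with a mean of at least 1 CPM over the 8 libraries, 4282 were higher in ADAR3 IP and 4415 were lower (limma on log2(CPM + 1), Benjamini-Hochberg adjusted p under 0.05). These are 29.3% and 30.2% of the genes tested. The other 5904 genes, 40.4%, did not pass. The median difference over all tested genes, ADAR3 IP minus input, was 0.02 on the log2(CPM + 1) scale, with quartiles of -0.49 and 0.47. For 53.4% of tested genes the 4 ADAR3 IP libraries did not overlap the 4 input libraries.

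Most of the called differences were under 2-fold. The median difference was 0.70 (quartiles 0.48 and 0.92) among the 4282 higher genes and -0.79 (quartiles -1.17 and -0.52) among the 4415 lower ones. A difference of at least 2-fold was reached by 779 higher genes, 5.34% of those tested, and by 1530 lower genes, 10.5% of those tested. At least 4-fold, 28 genes were higher and 185 lower, and at least 8-fold 8 were higher and 24 lower. At each of these sizes more genes lost share than gained it. How many genes pass the 2-fold line depends on the test, because the pseudocount of 1 CPM shrinks the differences of scarce genes: on recovered reads, edgeR with its quasi-likelihood test called 1316 genes at least 2-fold higher and 1636 at least 2-fold lower.

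**Figure D1:**
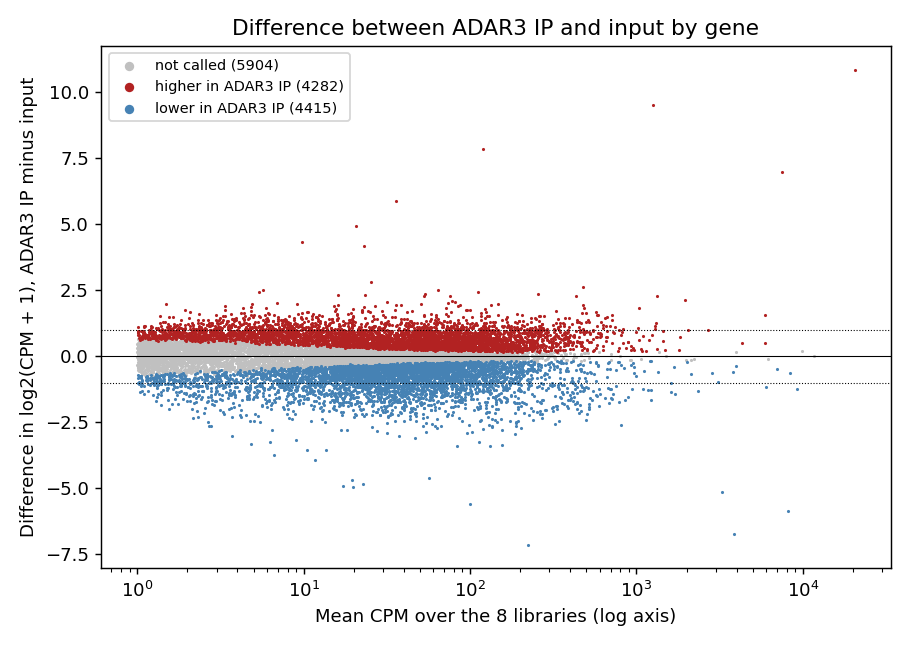
Difference in log2(CPM + 1), ADAR3 IP minus input (vertical axis), against the mean CPM over the 8 libraries (horizontal log axis), with 1 point for each of 14601 genes. The 4282 genes called higher are red, the 4415 called lower blue and the 5904 not called grey; dotted lines mark a 2-fold difference, and a few points lie far outside the main band on both sides.

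Expressed as reads, 25.2% of the ADAR3 IP would have to be assigned to other genes to match the mean input. Between single libraries thinned to 4873428 reads, this share was 24.0% to 28.3% over the 16 pairs of an ADAR3 IP with an input library. It was 6.33% to 9.36% over the 6 pairs of ADAR3 IP libraries and 3.70% to 5.94% over the 6 pairs of input libraries. The groups thus lay farther apart than any pair of replicates.

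A single gene, ENSG00000211459, described with its values further on, took 16.2% of all share gained, and the 10 largest gains took 29.7%. The gene with the largest loss accounted for 6.20% of all share lost, and the 10 largest for 21.0%. With all genes counted, 138 were needed to reach 50% of the gain and 188 to reach 50% of the loss, and 2054 and 2307 to reach 90%. The lead of the gains rested on that gene. Without the gene of largest change on each side, a setting chosen after seeing the data, the next 9 genes carried 16.1% of the remaining gain and 15.8% of the remaining loss. In that setting 50% was reached with 261 genes for gains and 232 for losses, the opposite order.

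**Figure D2:**
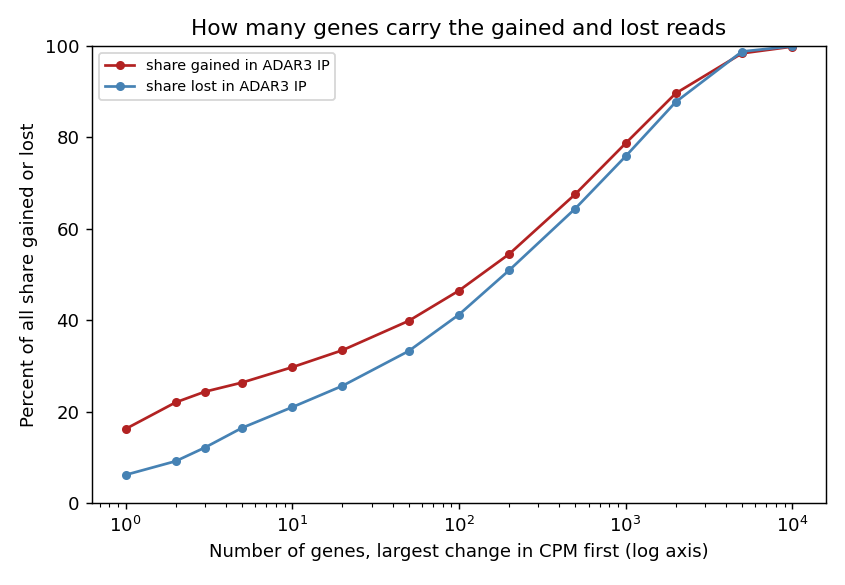
Percent of all share of reads gained (red) or lost (blue) in ADAR3 IP relative to input, on the vertical axis, against the number of genes counted from the largest change in CPM down, on a horizontal log axis. The curve of gains starts at 16.2% with a single gene and that of losses at 6.20%.

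The lists of the most abundant genes were only partly shared. Of the 10 most abundant genes of each group by mean CPM, 6 were on both lists, 60% of each. Of the 100 most abundant, 58 were shared, 58% of each list, and of the 1000 most abundant 686, 68.6% of each. The 5 most abundant genes of ADAR3 IP took 8.70% of its reads and stood at 8872 to 40894 CPM there, and 3 of the 5 were called higher than input and none lower, where 29.3% of all tested genes were called higher. The 5 most abundant genes of input took 5.94% of input reads at 9280 to 15898 CPM, and 3 of the 5 were called lower in ADAR3 IP and none higher, where 30.2% of all tested genes were called lower. Choosing genes for abundance in 1 group favours calls toward that group, so nothing is read from these counts. Just 2 genes were among the 5 most abundant of both groups.

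The largest rise among genes with at least 20 reads in every ADAR3 IP library was that of ENSG00000211459. It stood at 33.9, 17.7, 32.6 and 9.68 CPM in input replicates 1 to 4. In ADAR3 IP replicates 1 to 4 it stood at 41766, 41572, 36591 and 43649 CPM. Every ADAR3 IP library was thus far above every input library, and the gene ranked first by level in ADAR3 IP and 7522nd in input. The means were 40894 ± 3018 CPM in ADAR3 IP and 23.5 ± 11.8 CPM in input (SD, n = 4 each), a ratio of 1742, and the log2 difference was 10.86 ± 0.25 (SE; limma adjusted p = 1.95e-15). This gene alone gained 4.09 percentage points of reads. Pre-immune IP held 58132, 50554, 42172 and 49931 CPM of it, a mean of 50197 ± 6521 (SD, n = 4), so the serum control held about as much of it as the ADAR3 IP. In the authors' deposited table its log2 fold change of ADAR3 IP over pre-immune IP was -0.38, with an adjusted p of 0.05384.

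ENSG00000137571 had the next largest rise. Input replicates 1 to 4 held 2.98, 3.36, 1.85 and 1.55 CPM of it, from 38, 34, 9 and 15 reads. ADAR3 IP replicates 1 to 4 held 2783, 1982, 2135 and 3171 CPM. The groups were fully separated, with means of 2518 ± 557 CPM in ADAR3 IP and 2.43 ± 0.872 in input (SD, n = 4 each), a ratio of 1036. The log2 difference was 9.53 ± 0.16 (SE; limma adjusted p = 6.649e-17). The pre-immune libraries held far more still, at 61651, 61916, 34077 and 93591 CPM, and their mean was 24.9 times that of ADAR3 IP. The authors' deposited table gives it a log2 fold change of -4.74 in ADAR3 IP over pre-immune IP (adjusted p = 2.442e-43). The 2 leading rises over input thus belong to RNAs that were as abundant or more abundant in the IP without the ADAR3 antibody.

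The same held for most of the 10 largest rises, taken by size among called genes with full separation and at least 20 reads in every ADAR3 IP library. For 8 of the 10 every pre-immune library was above every ADAR3 IP library, and for 1 every pre-immune library was below every ADAR3 IP library. For 9 of the 10 every pre-immune library was above every input library. The same counts were not taken over all tested genes, so these describe the 10 genes chosen and no more. The log2 differences of the 10, ADAR3 IP minus input, ran from 2.62 to 10.86, with a median of 5.41. Their median level was 1.95 CPM in input, 156 CPM in the ADAR3 IP and 779 CPM in the serum IP. They took 0.0285% ± 0.00562 of reads in input (SD, n = 4), 5.95% ± 0.414 in ADAR3 IP and 18.6% ± 3.73 in the pre-immune libraries. Without the 2 leading genes, the remaining 8 took 0.0259% of input reads, 1.61% of ADAR3 IP reads and 7.32% of pre-immune reads. For 3 of the 10, at least 1 input library had no read. With a median input level of 1.95 CPM, the fitted differences of these and of other genes scarce in input depend on the pseudocount of 1 CPM.

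Among genes that lost share, the largest fall was that of ENSG00000263934. It stood at 360, 368, 642 and 392 CPM in input replicates 1 to 4, where replicate 3 was well above the others. ADAR3 IP replicates 1 to 4 held 2.80, 1.56, 1.17 and 3.08 CPM of it, from 81, 47, 32 and 74 reads. The groups did not overlap, with means of 2.15 ± 0.929 CPM in ADAR3 IP and 441 ± 135 CPM in input (SD, n = 4 each), 204.6 times as much in input. The log2 difference was -7.14 ± 0.20 (SE; limma adjusted p = 3.899e-14), and without input replicate 3 it was -6.94 (limma adjusted p = 2.287e-13). Pre-immune IP held 5.46, 5.01, 6.60 and 10.1 CPM, far below input as well. The authors' deposited table gives a log2 fold change of -1.72 in ADAR3 IP over pre-immune IP (adjusted p = 0.005786).

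ENSG00000269900 was the next largest fall and by far the more abundant of the 2. Input replicates 1 to 4 held 6600, 7940, 7824 and 8157 CPM, which placed it 8th by level in input. ADAR3 IP replicates 1 to 4 held 81.7, 47.8, 62.3 and 99.4 CPM, and it ranked 3079th there. The means were 72.8 ± 22.5 CPM in ADAR3 IP and 7630 ± 700.3 in input (SD, n = 4 each), 105 times as much in input, and the log2 difference was -6.74 ± 0.15 (SE; limma adjusted p = 1.95e-15). Its share of reads changed by -0.76 percentage points. Pre-immune IP stood between the other groups, at 291, 403, 438 and 477 CPM. In the authors' deposited table its log2 fold change of ADAR3 IP over pre-immune IP was -2.55 (adjusted p = 1.713e-18).

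**Figure D3:**
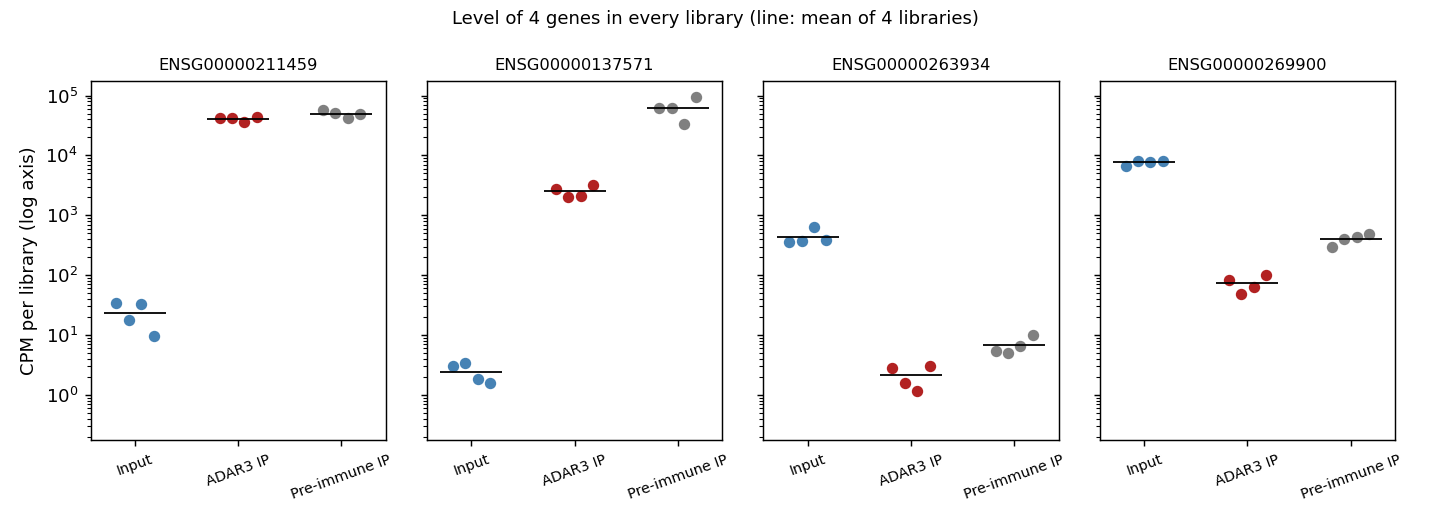
CPM in every library (vertical log axis) of the 2 genes with the largest rise and the 2 with the largest fall in ADAR3 IP relative to input, for 4 libraries each of input (blue), ADAR3 IP (red) and pre-immune IP (grey), with a line at each mean. In all 4 panels ADAR3 IP and input are fully separated; the pre-immune mean lies above the ADAR3 IP mean in each panel.

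The 10 largest falls, taken by the same rule with at least 20 reads in every input library, had log2 differences of -7.14 to -4.61. Their median level was 154 CPM in input, 2.79 CPM in the ADAR3 IP and 6.92 CPM in the serum IP. They took 3.08% ± 0.359 of reads in input (SD, n = 4), 0.0557% ± 0.0201 in ADAR3 IP and 0.339% ± 0.0501 in the pre-immune libraries. The remaining 8 without the 2 leading genes took 2.27% of input reads, 0.0482% of ADAR3 IP reads and 0.298% of pre-immune reads. For all 10 every pre-immune library was below every input library. The 2 IPs were set apart less evenly: for 5 of the 10 every pre-immune library was above every ADAR3 IP library, and for the other 5 the IPs overlapped. The 10 were chosen for high input over ADAR3 IP, which favours pre-immune levels below input and above ADAR3 IP. These counts were not taken over all tested genes and describe the 10 alone. The pre-immune share was carried largely by 1 gene, which had a mean of 2379 CPM there.

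Among all genes that rose, the pre-immune levels differed from those of the leading rises. The 779 genes at least 2-fold higher took 3.99% ± 0.101 of reads in input (SD, n = 4) and 16.1% ± 0.386 in ADAR3 IP, which describes the genes chosen and is no test. Their share in pre-immune IP was 23.7% ± 3.51 of all pre-immune reads, and the 10 largest rises alone held 18.6% of all pre-immune reads. Their median level was 10.0 CPM in input, 28.1 in ADAR3 IP and 16.3 in the pre-immune libraries. The median log2 difference to input was 1.19 in ADAR3 IP, with quartiles of 1.08 and 1.38, and 0.02 in pre-immune IP, with quartiles of -0.59 and 0.47. The 5904 genes not called in ADAR3 IP had a median pre-immune difference of -0.50 on the same scale. On the log2 scale the genes at least 2-fold higher in ADAR3 IP therefore lay near input in pre-immune IP but above the genes not called. By median CPM they lay above input there, at 16.3 against 10.0 CPM. The genes not called stood at 10.2 CPM in pre-immune IP and 9.85 in input. A pre-immune level near input on the log2 scale thus does not show that a rise was absent from the serum control. Both differences use the same 4 input libraries, so a relation between them is not an independent result.

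For the 1530 genes at least 2-fold lower, both IPs lay below input. These genes took 23.0% ± 1.25 of input reads (SD, n = 4), 7.25% ± 0.535 of ADAR3 IP reads and 10.3% ± 0.995 of pre-immune reads. Their median level was 47.1 CPM in input, 16.9 in ADAR3 IP and 27.4 in the pre-immune libraries. The median log2 difference to input was -1.36 in ADAR3 IP, with quartiles of -1.69 and -1.15, and -1.16 in pre-immune IP, with quartiles of -1.71 and -0.78. These differences share the 4 input libraries too. With the genes not called at -0.50 on the log2 scale, pre-immune values below input were not particular to the lower genes on that scale. By median CPM the genes not called did not lie below input, at 10.2 CPM in pre-immune IP against 9.85 in input. The pre-immune libraries were also the shallowest, and the part of depth in these values was not tested.

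Smaller shifts carried a large part of the reads. The 3503 genes called higher by under 2-fold took 24.1% ± 0.696 of reads in input (SD, n = 4) and 35.9% ± 0.851 in ADAR3 IP. The 2885 genes called lower by under 2-fold took 26.8% ± 0.125 and 18.4% ± 0.445. The 5904 genes not called took 21.9% ± 0.394 of input reads and 22.1% ± 0.143 of ADAR3 IP reads. The 17106 genes below the minimum level took 0.262% and 0.315%.

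Gains and losses were spread unevenly over expression levels. Among genes with a mean of 1 to 3 CPM over the 8 libraries, 3.83% were called at least 2-fold higher and 5.29% at least 2-fold lower, and among genes of 3 to 10 CPM 8.80% and 8.84%. From 10 to 30 CPM the shares were 4.49% higher and 11.6% lower, from 30 to 100 CPM 3.94% and 11.99%, and from 100 to 300 CPM 5.74% and 11.1%. Of the 391 genes of 300 to 1000 CPM, 12.5% were higher and 21.5% lower by at least 2-fold, and of the 64 genes above 1000 CPM 17.2% and 20.3%. The excess of losses was thus largest between 10 and 1000 CPM. Below 10 CPM the pseudocount shrinks differences and reads are few, so the percentages there are not comparable with those above.

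**Figure D4:**
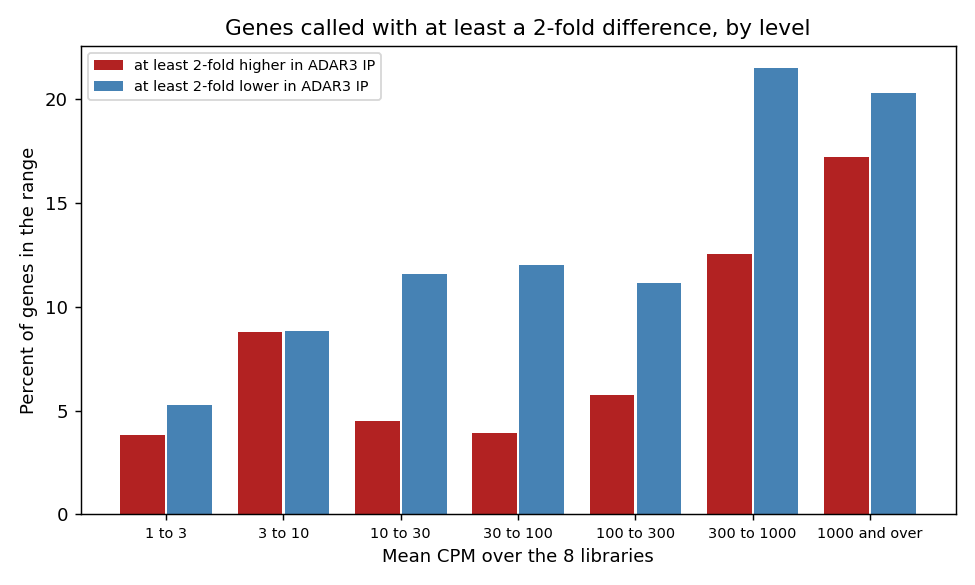
Percent of tested genes (vertical axis) called at least 2-fold higher (red) or lower (blue) in ADAR3 IP than in input, by mean CPM over the 8 libraries (horizontal axis). Bars for losses exceed those for gains by the widest margins between 10 and 1000 CPM; from 3 to 10 CPM they stand at 8.80% and 8.84%.

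The median difference itself stayed between -0.11 and 0.20 at every level. It was 0.16 on the log2 scale from 1 to 3 CPM and again 0.16 from 3 to 10 CPM, -0.11 from 10 to 30, -0.08 from 30 to 100, 0.09 from 100 to 300, 0.20 from 300 to 1000 and 0.01 above 1000 CPM. The range widened at high levels, where the 5th and 95th percentiles over genes reached -1.83 and 1.30 from 300 to 1000 CPM, against -1.40 and 0.98 from 10 to 30 CPM. Above 1000 CPM they were -1.62 and 2.25. By these percentiles the differences were most widely spread above 1000 CPM, a range of 64 genes. By quartiles the spread was widest from 300 to 1000 CPM, at -0.78 and 0.72, against -0.63 and 0.73 above 1000 CPM. Spread at low levels is narrowed by the pseudocount.

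ADAR3 IP libraries agreed less well with each other than input libraries did. Across the 14601 tested genes, which are not independent, Pearson's r of log2(CPM + 1) was 0.970 to 0.977 between ADAR3 IP libraries, 0.993 to 0.995 between input libraries and 0.909 to 0.934 between the groups. The SD over 4 libraries of log2(CPM + 1) had a median over genes of 0.24 in ADAR3 IP and 0.12 in input, and it was larger in ADAR3 IP for 12462 genes, 85.4%. With every library thinned to 4873428 reads the medians were 0.26 and 0.14, and the ADAR3 IP spread was larger for 82.4% of genes. The coefficient of variation beyond counting error, from edgeR's common dispersion, was 29.2% in ADAR3 IP and 6.49% in input.

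**Figure D5:**
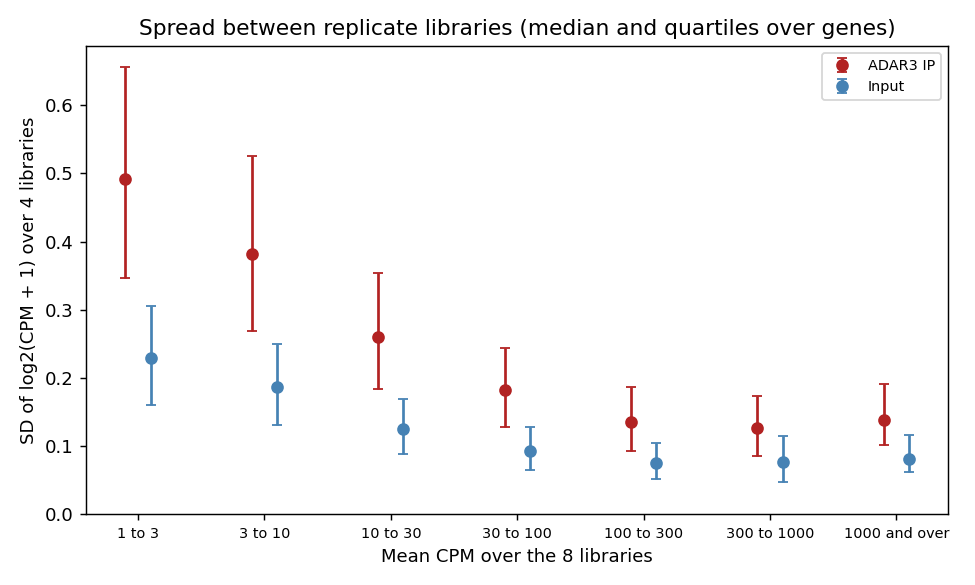
SD of log2(CPM + 1) over the 4 libraries of a group (vertical axis) by mean CPM over the 8 libraries (horizontal axis), with points at the median over genes and bars from the first to the third quartile, for ADAR3 IP (red) and input (blue). ADAR3 IP lies above input in every range, with medians of 0.49 against 0.23 from 1 to 3 CPM and 0.14 against 0.08 above 1000 CPM.

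The extra spread at low levels included genes that were nearly lost from 1 ADAR3 IP library. At equal depth, 1 ADAR3 IP library lay more than 4-fold below the lowest of its 3 partners for 651 genes, 209 of them in replicate 1, 233 in replicate 2, 112 in replicate 3 and 97 in replicate 4. In input the same was seen for 71 genes. The opposite pattern, a library more than 4-fold above its highest partner, was seen for 74 genes in ADAR3 IP and 5 in input. Nearly all of these were scarce genes: among the 9849 genes with a mean of at least 10 CPM, 5 showed such a low library in ADAR3 IP and 2 in input.

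A few genes were read on a single side. With no read in any input library, 69 genes had reads in all 4 ADAR3 IP libraries, at a median of 0.160 CPM and at most 2.97 CPM. Since 3 reads over the 4 input libraries would be 0.0800 CPM, the gene with the widest gap was at least 36.7-fold higher in ADAR3 IP. With no read in any ADAR3 IP library, in spite of their greater depth, 143 genes had reads in all 4 input libraries, at a median of 0.256 CPM and at most 7.44 CPM. Against the limit of 3 reads over the 4 ADAR3 IP libraries, 0.0272 CPM, the widest gap was at least 253-fold. At equal depth the numbers were 21 and 154 genes. A pre-immune read was found for 36 of the 69 genes and for 20 of the 143. A gene absent from the deposited values of a group was set to 0, so an absent entry and a measured lack of reads are not told apart. These limits cover counting error alone, since the libraries were amplified and carry no molecular identifiers in the sources used here.

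The comparison held across libraries. Leaving out any 1 of the 8 libraries left 3710 to 4313 genes higher and 4011 to 4503 lower, and no gene called in both fits changed direction. With 3 ADAR3 IP or 3 input libraries, the count at least 2-fold higher was 771 to 904 and that at least 2-fold lower 1432 to 1649.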

How the data were processed

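RNA immunoprecipitation sequencing of U373-MG cells was analysed for 4 ADAR3 IP and 4 input libraries, with 4 pre-immune IP libraries beside them. The submitters' processing notes list the build GRCh38, STAR 2.7.7a, DESeq2 and featureCounts but not their roles. No annotation or strand setting is given in the sources used here, and overlapping, antisense and near-identical genes are uncertain. The molecule label reads polyA RNA, while the protocol describes ribosomal RNA depletion. The authors deposited a normalized signal, counts divided by size factors, in 1 table for the IPs (28556 genes) and 1 for input (28061 genes), joined here to 31707 genes, with a gene absent from a table set to 0. Of the values, 100% were whole multiples of 1 read (tolerance 0.001 reads), so reads were recovered and scaled to counts per 1000000 reads (CPM) by library total. In the IP table, log2 fold changes and adjusted p-values of ADAR3 IP over pre-immune IP were deposited too.

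limma 3.58.1 (R 4.3.3) was fitted to log2(CPM + 1) with a variance trend, for genes with a mean of at least 1 CPM over the 8 libraries. That minimum was the lowest of 1, 2, 5 and 10 to give false calls for at most 1% of genes when tested on simulated data of this comparison: 0 to 2 false calls among 14574 to 14645 genes in 5 sets without change. In 3 sets of 50 genes per size and direction, 34 to 38 genes raised 2-fold and 42 to 46 raised 4-fold were recovered, and 33 to 39 lowered 2-fold and 40 to 42 lowered 4-fold, with 9 to 17 false calls. Far fewer genes were changed in these sets than were called in the data, so they do not give the share of false calls there. Named genes were the largest called differences in each direction with full separation of the libraries and at least 20 reads in every library of the higher group, limited to 2 IDs per direction because 0 of 31707 IDs matched the reference table of 59792 genes. Gene lists, RNA classes, cell markers and genes listed for naming by symbol were therefore not analysed. The comparison, lists and rules were chosen with earlier results of these data known. edgeR 4.0.16 and DESeq2 1.42.0 on the recovered reads, other scalings, pseudocounts and filters, equal depth and leaving out each library were alternatives.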

Additional observations from a re-analysis of the deposited data

Results flagged for a closer look

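In 1 of 32 sets of 4 replicate values examined, Dixon's test set a library apart from its 3 partners. The gap of input replicate 3 to the next library in the level of ENSG00000263934 was 0.886 of the whole range, with values of 360, 368, 392 and 642 CPM. Chance alone marks about 1 set in 20. Input replicate 3 is also the shallowest of the 8 libraries, with 4873428 reads. Without it the log2 difference of this gene was -6.94 in place of -7.14.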

How the results depend on the processing

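The counts of 4282 higher and 4415 lower genes stayed within 1.5 times their value in all 22 alternatives run. No gene called in both the main fit and an alternative changed direction. Genes at least 2-fold higher, 779, became 1174 with a pseudocount of 0.1, 368 with a pseudocount of 5, 480 with a minimum of 10 CPM, 1316 with edgeR, 1277 with DESeq2 and 1214 with limma on voom and group variance weights; genes at least 2-fold lower, 1530, became 1010 with a pseudocount of 5. A larger pseudocount shrinks the differences of scarce genes by construction. TMM factors gave 743 and 1589, median-ratio factors 748 and 1576. The share of reads moved, 25.2%, was 22.1% without the 10 most abundant genes of either group, and 24.8% to 25.6% with 1 library left out, settings chosen after seeing the data.

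Leaving out 1 library gave 3710 to 4313 higher and 4011 to 4503 lower genes, and 771 to 904 and 1432 to 1649 at 2-fold. The 4 named genes passed in all 22 alternatives each, with the highest adjusted p at 6.394e-07. Their sizes depended on the pseudocount where levels were low. With pseudocounts of 5 and 0.1 the log2 difference of ENSG00000137571 was 8.39 and 10.0, and that of ENSG00000263934 -5.93 and -7.67. ENSG00000211459, at 10.59 and 10.93, and ENSG00000269900, at -6.66 and -6.76, changed less. A replicate block in limma gave 4342 higher and 4531 lower genes. The correlation between deviations of equally numbered libraries was -0.0468 to 0.1905 and not over 0.1 throughout. The number was treated as a name without pairing on that ground. However, 3 of 4 ADAR3 IP libraries were closest to their own number, so these values do not settle whether the libraries were paired. Alternatives for gene lists and RNA classes were not run. Depth limits scarce genes most, since the shallowest input library held 4873428 reads.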
